A study of Mus musculus with 46 samples.

Results

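The nucleosome remodelling and deacetylase complex (NuRD) was followed through its genes in mouse fibroblasts on the way to pluripotency. The members were the 10 genes Chd4, Mbd3, Mbd2, Mta1, Mta2, Mta3, Hdac1, Hdac2, Gatad2a and Gatad2b, found by symbol in a gene table of 37108 genes and in a transcript table of 106520 transcripts, where 81 transcripts belonged to them and were summed per gene (10 of 35976 symbols). All 10 were found in both tables, and all 10 passed the filter on low values (at least 1 FPKM in at least 2 libraries). FPKM are fragments scaled by gene model length and by the depth of the library. Levels of different genes are compared only on this scale, which still depends on the gene models used: for Mta1 and Mta3 the tables disagree.

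NuRD couples an ATPase of the CHD family, which slides nucleosomes, to class I histone deacetylases, which remove acetyl groups from histone tails. The Mta proteins hold the deacetylases, an Mbd protein bridges this deacetylase part to the part with the ATPase, and a Gatad2 protein binds both the Mbd protein and the ATPase. Mbd2 and Mbd3 exclude each other from a given complex: Mbd2 binds methylated DNA, whereas mammalian Mbd3 binds it weakly. In embryonic stem cells NuRD is known for damping the transcription of pluripotency genes, and Mbd3 is needed there for lineage commitment.

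OG2 MEF are fibroblasts of E13.5 embryos of an OG2 by 129 cross that carry an Oct4-driven GFP. They received pMXs retroviruses for Oct4 and either native Nanog (NanogWT, labelled Nanog+Oct4) or Nanog fused at its start to the BRG1-interacting piece of SS18 (NanogBiD, labelled NanogN70+Oct4). Day 0 (D0) was set after infection, cells were kept in iCD3 medium and moved to N2B27 with 2i and LIF after about a week, and there was no untransduced culture at each day. The time course held 31 libraries, 2 per combination at each of D0, D1, D3, D5 and D7 and of D8, D10 and D12, except a single one for NanogBiD at D8. Beside them stood 2 libraries of untreated MEF and 1 of mouse embryonic stem cells (mES), labelled OG2-mES and derived from embryos of OG2 mice. A further 12 libraries came from established iPSC, 6 per combination, grown feeder-free in the medium of the mES. They were labelled iPSC1 (4 for NanogWT and 3 for NanogBiD) or iPSC2 (2 and 3), with a number marked #. That number is called a clone number here, though the labels do not say that it names a clone. Column names mark MEF as p2, mES as p20, iPSC1 as p5 or p6 and iPSC2 as p2, read here as passages. The labels do not say that replicates came from separate cultures, so p-values measure the spread between these libraries, which may be technical.

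Total FPKM lay between 370030 and 462190 in the time course. Depth relative to the median library, estimated from the most frequent ratio of low values between libraries, was 0.810 to 1.10 in NanogBiD libraries, 0.872 to 1.06 in NanogWT libraries to D7 and 1.85 to 3.18 in NanogWT libraries from D8, so from D8 depth and combination cannot be told apart. The summed level of 8 fibroblast markers was 5739 to 6693 FPKM in MEF, 2403 to 2970 in NanogWT and 252 to 395 in NanogBiD at D12, and 9.15 in mES. For 8 pluripotent cell markers the sums were 0.459 to 1.49, 157 to 214, 1190 to 2154 and 3551. In bulk RNA, fewer cells of a type and less RNA per cell cannot be told apart. Libraries of iPSC carried 2.64 to 426 FPKM of fibroblast markers, except NanogBiD clone 9 with 1354, and results on iPSC are therefore also given without it.

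The windows before the start sites of 7 members were found in a RefSeq promoter table of assembly GRCm38.p6. The 250 bases before the start, 5′ to 3′ on the gene's strand, are shown for Chd4, which had the largest fitted rise on the NanogBiD path, for Mta2, whose window holds an octamer, and for the paralogues Gatad2a and Gatad2b, whose differences at D10 were unlike in size. Where a gene has more than 1 window the first listed is shown. Capitals mark the GC box GGGCGG, the CCAAT box and the octamer ATGCAAAT, on either strand, none of which overlap in these windows.
Chd4 (chr6:125095731-125095980, plus strand): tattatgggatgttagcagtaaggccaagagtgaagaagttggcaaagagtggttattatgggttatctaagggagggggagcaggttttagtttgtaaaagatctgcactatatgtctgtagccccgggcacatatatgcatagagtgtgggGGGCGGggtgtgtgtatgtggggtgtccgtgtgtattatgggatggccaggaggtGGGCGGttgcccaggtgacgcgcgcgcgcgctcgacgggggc
Mta2 (chr19:8941670-8941919, plus strand): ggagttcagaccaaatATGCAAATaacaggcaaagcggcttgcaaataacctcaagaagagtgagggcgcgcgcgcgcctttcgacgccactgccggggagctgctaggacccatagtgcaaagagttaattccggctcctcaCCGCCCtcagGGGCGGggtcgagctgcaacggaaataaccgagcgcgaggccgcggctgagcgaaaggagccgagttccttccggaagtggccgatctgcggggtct
Gatad2a (chr8:69996385-69996634, minus strand): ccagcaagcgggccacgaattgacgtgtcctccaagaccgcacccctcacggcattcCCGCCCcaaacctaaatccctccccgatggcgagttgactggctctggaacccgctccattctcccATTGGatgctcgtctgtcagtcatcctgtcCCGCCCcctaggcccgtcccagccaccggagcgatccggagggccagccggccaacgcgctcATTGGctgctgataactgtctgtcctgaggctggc
Gatad2b (chr3:90292931-90293180, plus strand): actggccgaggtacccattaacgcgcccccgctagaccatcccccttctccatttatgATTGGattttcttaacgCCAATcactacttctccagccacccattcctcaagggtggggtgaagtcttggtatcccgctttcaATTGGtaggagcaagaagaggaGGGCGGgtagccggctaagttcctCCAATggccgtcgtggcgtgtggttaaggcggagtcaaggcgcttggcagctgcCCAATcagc

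Every window of the 7 genes held at least 1 GC box, as did 32.7% of 32851 promoters of that length. The printed windows of Chd4, Mta2 and Gatad2a held 2 each and that of Gatad2b 1. The printed window of Gatad2b held 5 CCAAT boxes and that of Gatad2a 2, while their other windows, not printed, held 1 and 0. Of all promoters 33.8% held any. The octamer, the core of sites bound by POU factors such as Oct4, was found in the Mta2 window alone among the 10 windows of the 7 genes, and in 1.6% of all promoters. No window held the E2F letters TTTGGCGC or TTTCCCGC (1.3% of promoters), and 1, that of Mbd3, held TATAAA (12.4%). The 4 printed windows had 54.0% to 64.0% G and C and 12 to 24 CG dinucleotides, against a median of 52.4% and 6 over all promoters. These matches describe letters and were not tied to binding here.

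**Figure D1:**
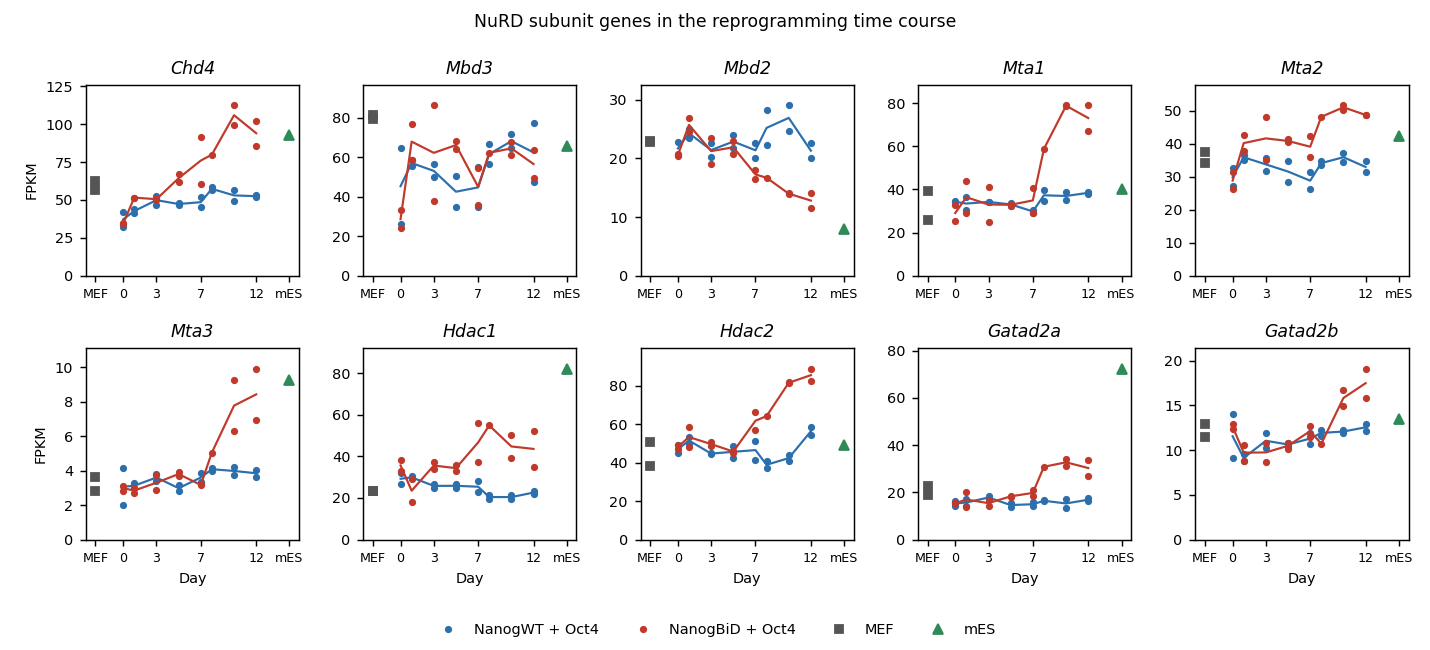
Level (FPKM, linear axis from 0) of each of the 10 genes by day in NanogWT (blue) and NanogBiD (red) cells, with MEF (squares) and mES (triangle) at the sides; points are libraries and lines join the means. Libraries of the combinations overlap for 8 genes at D0, 5 at D1 and 7 at D3, and for Mbd3 alone at D10 and D12. Mbd2 is the gene that is lower with NanogBiD on those last days. The share of all genes that lie apart in this way was not computed. By the test 55.6% of all genes were called at D10 and 50.7% at D12.

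NanogBiD cells came to hold more transcript of most NuRD genes than NanogWT cells, late in the time course. With limma and Benjamini-Hochberg adjustment over all 16842 genes, 0 of the 10 differed at D0, where 1.91% of all genes were called. It was again 0 for D1 (3.27% of all genes), then for D3 (10.1%) and for D5 (16.4%). At an unadjusted p under 0.05 the counts were 0, 0, 0 and 2, the last for Chd4 and Mta2. The shares of all genes at that limit were 15.8%, 13.5%, 22.8% and 29.2%. On D7, 4 members were higher with NanogBiD and 0 lower, against 28.4% of all genes called (17.3% higher, 11.1% lower). By D10, 7 were higher and 1 lower (55.6% of all genes called, 32.4% higher and 23.1% lower), and by D12, 8 were higher and 1 lower (50.7%, 31.6% and 19.1%). The median difference of the 10, in log2(FPKM + 1), was 0.29, 0.86 and 0.70 on these 3 days, while the median of all genes was 0.08, 0.10 and 0.17. At D12 quantile normalization brought the median of all genes to 0.05, and differences there are relative to a background that was itself raised.

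The 4 calls at D7 rested on all 4 libraries of that day. Chd4 and Mta2 were no longer called without NanogBiD replicate 1 or without NanogWT replicate 2, and Hdac1 and Hdac2 without NanogBiD replicate 2 or NanogWT replicate 1. Each left-out library thus left 2 of the 10 called, and the D7 libraries fitted without the other days gave 0. With a 2-fold limit added, 0 members were called at D7 (10.4% of all genes), 3 at D10 (27.8%) and 0 at D12 (23.4%). A list of 12 proliferation genes moved with these results: its summed level was 523 to 572 FPKM with NanogBiD and 198 to 231 with NanogWT at D7, and 785 to 907 against 256 to 296 at D12, with 11 of 12 higher at D7 and 12 of 12 at D10 and D12. The part of proliferation in the NuRD results was not tested.

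**Figure D2:**
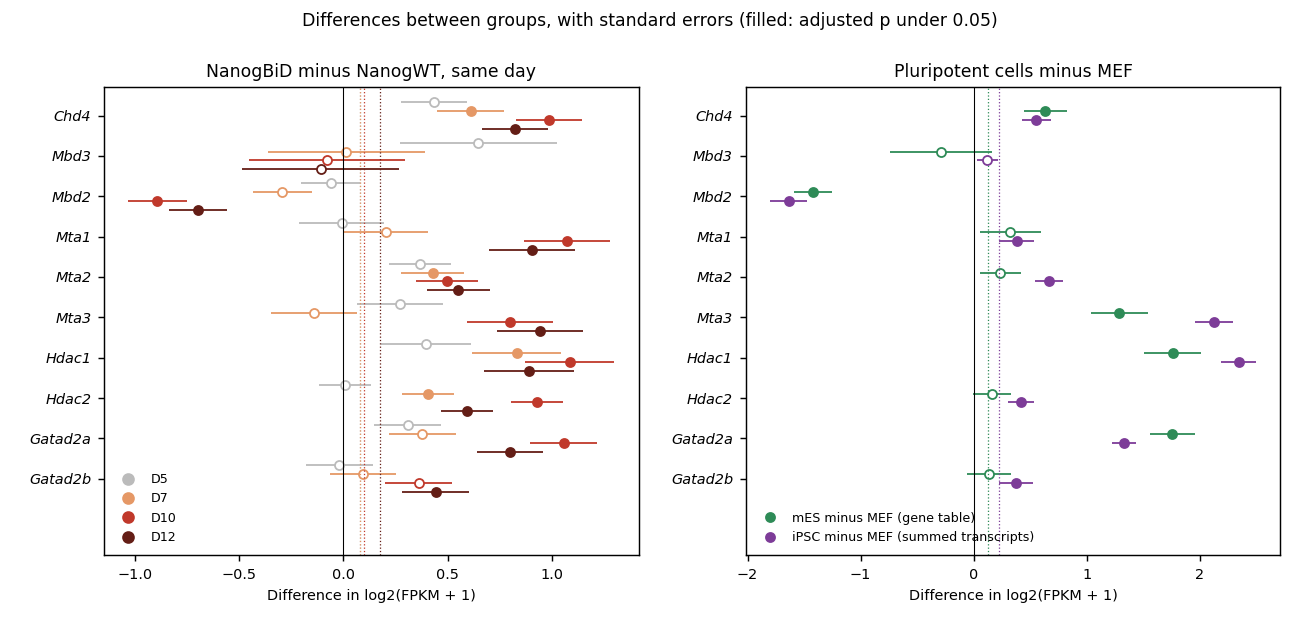
Difference in log2(FPKM + 1) with its standard error for each gene: left, NanogBiD minus NanogWT at D5, D7, D10 and D12; right, mES minus MEF in the gene table and iPSC minus MEF in the transcript table. Filled points passed an adjusted p under 0.05 and dotted lines mark the median of all genes; Mbd2 lies left of 0 in both panels wherever it is filled, and every other filled point lies right of it.

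Chd4 (chromosome 6, 125095980 to 125130591, plus strand, GRCm38.p6) encodes the ATPase. It measured 32.2 and 42.1 FPKM with NanogWT and 34.2 and 34.5 with NanogBiD at D0. On the NanogBiD path it was 51.6 and 51.5 at D1, 51.2 and 49.7 on D3, 61.6 and 67.1 at D5, 91.3 and 60.6 at D7, 79.9 at D8, 99.2 and 113 at D10 and 85.8 and 102 at D12. All NanogBiD libraries from D1 were above those of D0. The NanogWT path gave 41.2 and 44.2, 46.8 and 52.9, 46.5 and 48.1, 52.0 and 45.0, 58.3 and 56.3, 49.4 and 56.5, and 53.2 and 51.7 on the same days. No NanogWT library exceeded 58.3, MEF stood at 56.7 and 62.5, and the combinations did not overlap at D1 or from D5. NanogBiD exceeded NanogWT by 0.61 ± 0.16 (SE, n = 2 and 2; adjusted p = 0.0068) at D7, a value of 0.32 without NanogBiD D7 replicate 1. The excess was 0.99 ± 0.16 (3.1e-05) by D10 and 0.82 ± 0.16 (0.00025) by D12.

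Within NanogBiD cells Chd4 rose by 1.09 ± 0.16 from D0 to D7 (adjusted p = 1.6e-05) and by 1.42 ± 0.16 to D12 (2.6e-07). Over these spans the median gene rose by 0.24 and 0.34, which leaves 0.85 and 1.08 for Chd4 beyond it. With NanogWT the change was 0.38 ± 0.16 to D7 (adjusted p = 0.065), past the threshold after rescaling to the median total or without NanogWT D0 replicate 2, and 0.50 ± 0.16 to D12 (adjusted p = 0.019). The D7 change differed between combinations by 0.71 ± 0.23 (adjusted p = 0.038, with 15.9% of all genes called), the 1 member of 10 for which it did. That call was lost in 4 of 6 settings that kept all libraries and used no fold limit, and without 5 of the 8 libraries in turn (either NanogBiD D0 library, NanogBiD D7 replicate 1, NanogWT D7 replicate 2 or NanogWT D0 replicate 2), with the smallest difference, 0.42 (adjusted p = 0.22), without NanogBiD D7 replicate 1. At D12 Chd4 in NanogBiD cells was 0.01 ± 0.19 from the 93.1 FPKM of mES.

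From D0 to D7 in NanogBiD cells 3 members rose, Chd4, Mta2 (0.43 ± 0.15, adjusted p = 0.027) and Hdac2 (0.35 ± 0.13, adjusted p = 0.03), and 0 fell, with 43.8% of all genes called. Quantile normalization gave 2 higher and 1 lower, the latter Mbd2. Past a 2-fold limit there was 1, Chd4 (18.8% of all genes). Relative to the median gene Mta2 and Hdac2 rose by only 0.19 and 0.11. Without NanogBiD D0 replicate 2, Chd4 alone was called. With NanogWT 0 of 10 were called by limma over that span (38.7% of all genes called). At an unadjusted p under 0.05 there was 1, Chd4, beside 46.3% of all genes. From D0 to D12, 8 rose and 1 fell with NanogBiD (61.7% of all genes called, 42.8% higher), and with NanogWT Chd4 alone rose (38.1%). Past 2-fold the counts were 3 (34.7% of all genes) and 0 (16.2%), and 0 for the difference of the D7 changes (10.1%). The NanogWT count without a fold limit ran from 0 to 2 as single libraries were left out, being 0 without either D12 library, 2 (Mbd3 and Mta3) without D0 replicate 1 and 2 (Chd4 and Gatad2b) without D0 replicate 2.

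Mbd2, the methyl-CpG-binding subunit, was the member that went down. It measured 20.4 and 20.7 FPKM at D0 with NanogBiD, 24.6 and 26.9 at D1, 23.4 and 19.1 on D3, 23.0 and 20.8 at D5, 16.5 and 18.1 at D7, 16.7 at D8, 14.0 and 14.0 at D10 and 14.1 and 11.5 at D12. With NanogWT it was 22.8 and 20.6 at D0, 20.1 and 22.7 at D7, 29.1 and 24.7 on D10 and 20 and 22.6 at D12, close to the 22.9 and 22.8 of MEF. The combinations did not overlap at D7, D8, D10 and D12. The difference was -0.29 ± 0.14 at D7 (adjusted p = 0.13), -0.89 ± 0.14 at D10 (2.1e-05) and -0.70 ± 0.14 at D12 (0.00036). NanogBiD cells fell by 0.65 ± 0.14 from D0 to D12 (adjusted p = 0.00049), or by 0.99 relative to the median gene, and NanogWT cells changed by -0.03 ± 0.14 (adjusted p = 0.91). The mES level was 7.91, and NanogBiD cells at D12 were still 0.62 ± 0.17 above it (adjusted p = 0.0057).

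Mbd3 (chromosome 10, 80392539 to 80399531, minus strand), which replaces Mbd2 in the other form of the complex, varied most between replicates. Its replicates differed by a median of 1.31-fold over 15 pairs and by up to 2.48-fold, at NanogWT D0 with 64.5 and 26.0 FPKM. NanogBiD gave 33.1 and 24.1 at D0, 54.2 and 35.6 at D7, 67.6 and 61.2 on D10 and 63.3 and 49.6 at D12, and NanogWT gave 54.8 and 34.5, 64.4 and 71.6, and 77.3 and 47.3 at those last days. Both NanogBiD libraries were above both of NanogWT at D1 (means of 67.8 and 57) and at D5 (66.0 and 42.5), with differences of 0.24 and 0.65, each ± 0.38, that did not pass the test. The combinations overlapped on the other days, with differences of 0.01, -0.08 and -0.11, each ± 0.38, at D7, D10 and D12. An error of that size leaves differences of well over 1.5-fold undetectable. Within NanogBiD cells it was 0.96 ± 0.38 higher at D12 than at D0 (adjusted p = 0.032), a call lost without the filter on low values, without NanogBiD D0 replicate 2 and without NanogBiD D12 replicate 1.

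As a share of Mbd2 and Mbd3 summed, Mbd3 was 53.8% to 61.9% at D0 and 81.1% to 81.8% at D12 with NanogBiD, and 55.8% to 73.9% and 67.7% to 79.4% with NanogWT. MEF stood at 77.7% to 78.0% and mES at 89.2%. The D0 libraries thus had less Mbd3, by share, than the untransduced MEF in all 4 cases.

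**Figure D3:**
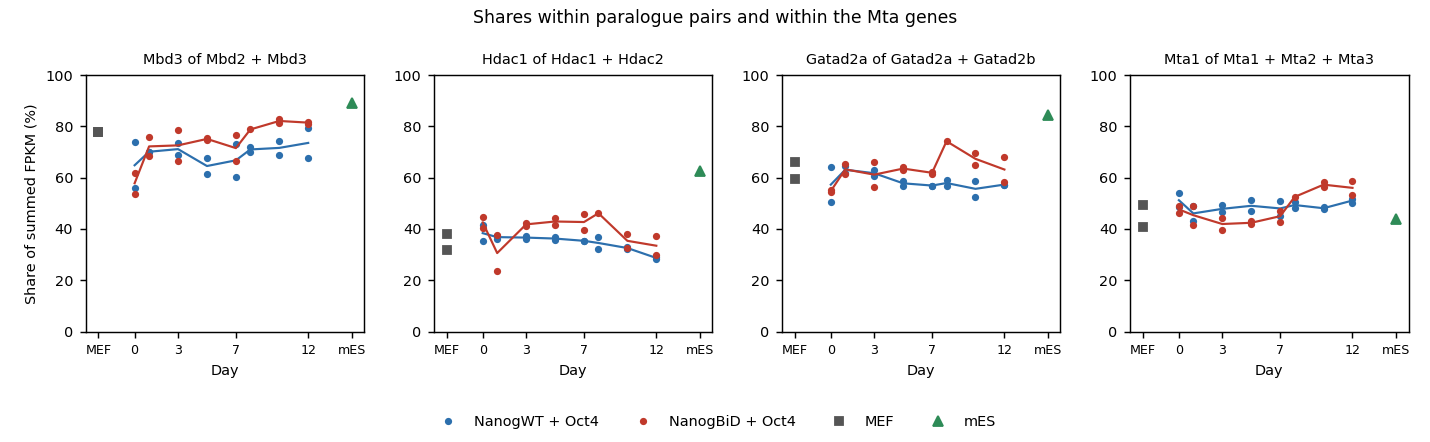
Share (%) of each named gene in the summed FPKM of its paralogues by day, for NanogWT (blue) and NanogBiD (red), with MEF (squares) and mES (triangle); points are libraries and lines join the means. The mES triangle lies above every time-course point for Mbd3, Hdac1 and Gatad2a, and below most of them for Mta1.

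The Mta genes encode the scaffold that holds the deacetylases. Mta1 (chromosome 12, 113098248 to 113137206, plus strand) measured 33.0 and 25.2 FPKM at D0, 40.6 and 29.3 at D7, 58.8 at D8, 78.7 and 79.0 at D10 and 67.1 and 79.2 at D12 with NanogBiD. With NanogWT it was 34.5 and 34.1 at D0, 29.1 and 30.5 at D7, 34.8 and 39.8 at D8, 35.3 and 38.7 at D10 and 38.8 and 38.1 at D12. NanogBiD libraries from D8 thus lay above every NanogWT library, and above the 25.9 and 39.5 of MEF and the 40.3 of mES. The difference was 1.07 ± 0.20 at D10 (adjusted p = 0.00018) and 0.91 ± 0.20 at D12 (0.0011), and NanogBiD cells at D12 exceeded mES by 0.84 ± 0.27 (adjusted p = 0.018, and 0.10 without NanogBiD D12 replicate 2).

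Mta2 (chromosome 19, 8941920 to 8952300, plus strand), whose promoter window holds the octamer printed above, moved less. It was 31.4 and 26.3 FPKM at D0, 42.3 and 35.9 at D7, 51.8 and 50.4 on D10 and 48.8 and 48.7 at D12 with NanogBiD, and 32.6 and 27.1, 31.4 and 26.2, 34.6 and 37.3, and 34.6 and 31.3 with NanogWT. The combinations overlapped at D0 and not at D7, D10 or D12. The differences were 0.43 ± 0.15 at D7 (adjusted p = 0.038), 0.50 ± 0.15 at D10 (0.0085, and 0.065 without NanogWT D10 replicate 1) and 0.55 ± 0.15 at D12 (0.0047). Among the 3 Mta genes its share of the summed FPKM was 46.5% to 48.4% at D0 and 36.1% to 38.8% at D12 with NanogBiD, as Mta1 took 53.3% to 58.8%.

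Mta3 (chromosome 17, 83706163 to 83823715, plus strand) was the lowest of the 3 in this table. It measured 3.14 and 2.82 FPKM at D0, 3.14 and 3.19 at D7, 5.05 at D8, 9.24 and 6.31 at D10 and 9.91 and 6.94 at D12 with NanogBiD, and between 2.00 and 4.23 in all NanogWT libraries. NanogBiD libraries from D8 were above all of NanogWT. The difference was 0.80 ± 0.21 at D10 (adjusted p = 0.0027, and 0.065 without NanogBiD D10 replicate 1) and 0.94 ± 0.21 at D12 (0.00078). At D12 NanogBiD cells differed from the 9.27 of mES by -0.14 ± 0.25 (adjusted p = 0.71).

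Hdac1 (chromosome 4, 129516104 to 129542646, minus strand) and Hdac2 (chromosome 10, 36974297 to 37001889, plus strand) encode the deacetylases. Hdac1 was 33.2 and 38.2 FPKM at D0, 28.9 and 18 at D1, 37.3 and 33.9 on D3, 35.9 and 32.8 at D5, 37.4 and 56.1 at D7, 54.9 at D8, 50.4 and 39.2 at D10 and 52.4 and 34.8 at D12 with NanogBiD. With NanogWT it was 31.8 and 26.7 at D0, 22.8 and 28.0 at D7, 21.6 and 19.3 at D8, 19.4 and 21.5 at D10 and 22 and 23.2 at D12. Hdac1 thus ended near its own D0 level with NanogBiD (0.26 ± 0.21, adjusted p = 0.31) and at a mean below its D0 level with NanogWT (-0.35 ± 0.21, adjusted p = 0.21), neither past the threshold. Between combinations the differences were 0.83 ± 0.21 at D7 (adjusted p = 0.0062, and 0.13, with a difference of 0.55, without NanogBiD D7 replicate 2), 1.09 ± 0.21 at D10 (0.00025) and 0.89 ± 0.21 at D12 (0.0018, and 0.056 without NanogBiD D12 replicate 1). NanogBiD cells at D12 were 0.93 ± 0.26 below the 82.2 of mES (adjusted p = 0.007, and 0.091 without NanogBiD D12 replicate 2). Hdac1 has processed pseudogenes with 99.4% identity over 1444 bases (Gm10093) and 96.3% over 1450 bases (AC125456.1), so its level is uncertain to the extent that reads were shared.

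Hdac2 was 49.1 and 47.1 FPKM at D0, 57 and 66.4 at D7, 64.1 at D8, 81.6 and 81.2 at D10 and 88.7 and 82.1 at D12 with NanogBiD, against 44.8 and 49.1, 41.5 and 51.4, 37.0 and 40.6, 40.8 and 43.8, and 54.1 and 58.4 with NanogWT. It was higher with NanogBiD by 0.41 ± 0.13 at D7 (adjusted p = 0.02), 0.93 ± 0.13 at D10 (3.6e-06) and 0.59 ± 0.13 at D12 (0.00056). The NanogBiD libraries of D10 and D12 were above every other library of this table, MEF (50.6 and 38.1) and mES (49.2) included, and at D12 they exceeded mES by 0.78 ± 0.17 (adjusted p = 0.001). Hdac1 made up 40.3% to 44.8% of the deacetylase pair at D0 and 29.8% to 37.1% at D12 with NanogBiD, and 62.5% in mES, so at D12 the balance lay on the other side of that in mES.

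Gatad2a (chromosome 8, 69907069 to 69996402, minus strand) and Gatad2b (chromosome 3, 90293181 to 90363405, plus strand) encode the zinc-finger subunits that bind the Mbd protein. Gatad2a measured 15.3 and 15.2 FPKM at D0, 21.1 and 18.4 at D7, 30.8 at D8, 34.2 and 31.2 at D10 and 33.8 and 26.7 at D12 with NanogBiD, and between 13.5 and 18.2 in all NanogWT libraries. The difference was 0.38 ± 0.16 at D7 (adjusted p = 0.085), 1.06 ± 0.16 at D10 (1.4e-05) and 0.80 ± 0.16 at D12 (0.00034). In mES it reached 72.3, and NanogBiD cells at D12 were 1.24 ± 0.20 below that (adjusted p = 4.4e-05), the only member more than 2-fold from mES. Gatad2b was 12.9 and 12.3 at D0 and 15.9 and 19.1 at D12 with NanogBiD, 9.07 and 14.0, and 12.1 and 13.0 with NanogWT, 12.9 and 11.5 in MEF and 13.4 in mES. Its difference of 0.44 ± 0.16 at D12 (adjusted p = 0.027) was lost on rescaling to the median total, on quantile normalization, in the D12 groups fitted alone and without 3 of the 4 libraries in turn. An annotated antisense transcript, 4930537H20Rik, shares 247 exon bases with Gatad2b, and a use of strand in the counting is not given in the sources used here.

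The mES library differed from MEF in 5 of the 10 genes, a share close to that of all genes. In this single library, which was assumed to vary like the other groups, 4 members were higher than in the 2 MEF libraries and 1 lower, with 54.1% of all genes called (32.6% higher, 21.5% lower). Hdac1 was 23.6 and 23.5 FPKM in MEF and 82.2 in mES, a difference of 1.76 ± 0.26 (adjusted p = 6.7e-06). Gatad2a was 18.8 and 22.6 in MEF, a difference of 1.76 ± 0.20 (2.1e-07). Mta3 differed by 1.29 ± 0.25 (0.0002), Chd4 by 0.64 ± 0.19 (0.0084) and Mbd2 by -1.42 ± 0.17 (4.3e-07). Chd4 lost its call when libraries were rescaled (0.39, adjusted p = 0.17). Their paralogues Hdac2, Gatad2b, Mta1, Mta2 and Mbd3 differed by 0.16 ± 0.17, 0.13 ± 0.19, 0.32 ± 0.27, 0.23 ± 0.18 and -0.29 ± 0.45. The median gene differed by 0.13, and all differences here are on a scale without rescaling. NanogBiD cells at D12 stood above mES in 3 members (Hdac2, Mta1, Mbd2) and below in 2 (Gatad2a, Hdac1), with 38.1% of all genes called (25.1% higher, 13% lower). It was 1 with a 2-fold limit (21.6% of all genes) and 3 without NanogBiD D12 replicate 2.

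The genes that vary most like each member, by Pearson correlation of log2(FPKM + 1) over the 31 time-course libraries and 16841 other genes, were Gon4l for Chd4 (0.959), Map2k2 for Mbd3 (0.929), Cd151 for Mbd2 (0.912), Parn for Mta1 (0.938), Farsa for Mta2 (0.945), Gm41885 for Mta3 (0.929), Sae1 for Hdac1 (0.894), Myef2 for Hdac2 (0.953), Pold1 for Gatad2a (0.944) and Sbf2 for Gatad2b (0.932). Among the members themselves the highest was Gatad2a with Mta1 (0.887) and the lowest Hdac2 with Mbd2 (-0.791). The libraries share days, combinations and depth, and these values are descriptions.

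**Figure D4:**
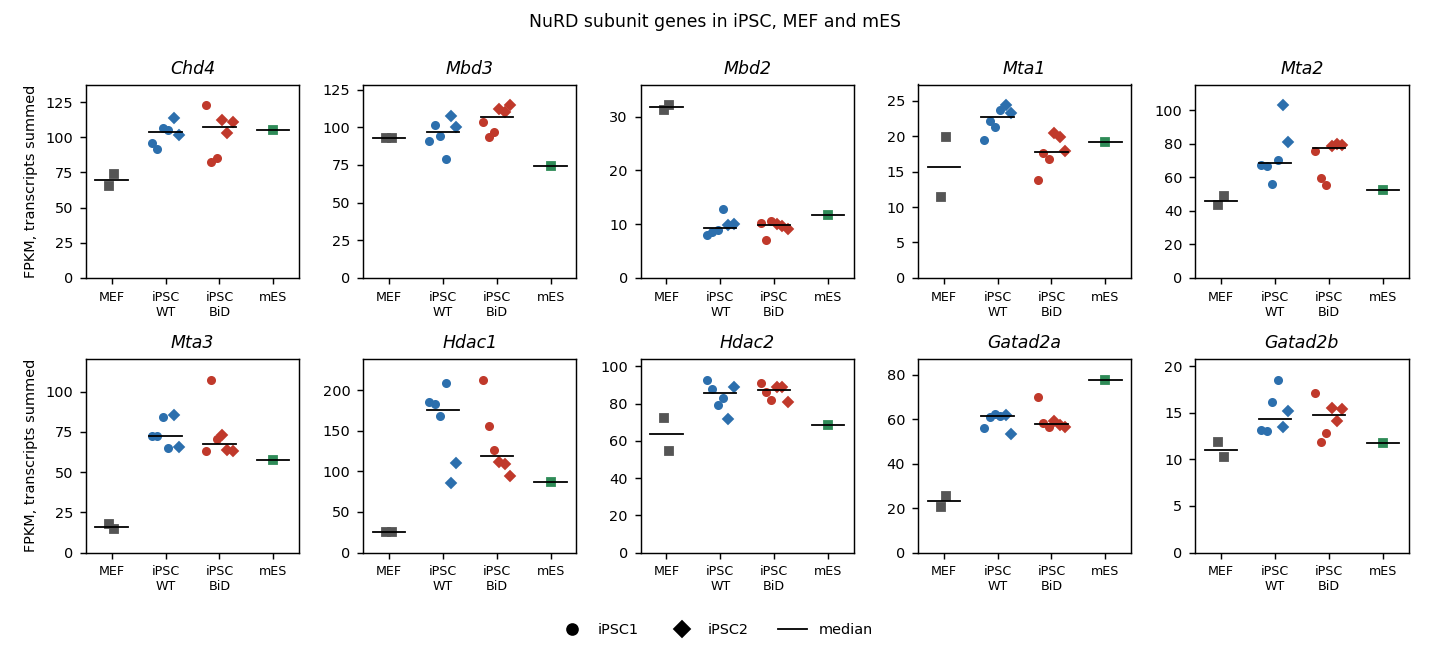
Summed transcript FPKM (linear axes from 0) of each gene in MEF, iPSC of NanogWT and of NanogBiD, and mES; points are libraries, circles and diamonds mark the labels iPSC1 and iPSC2, and bars the medians. For Mbd2, Mta3, Hdac1, Gatad2a, Chd4, Mta2 and, by a narrow gap, Gatad2b the 12 iPSC libraries lie apart from MEF. The share of all genes that lie apart in this way was not computed, and by the test 71.1% of all genes were called. For Hdac1 the circles lie above the diamonds.

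Between established iPSC of the combinations no NuRD gene passed the test. With the iPSC1 or iPSC2 label as a covariate, 0 of 10 members were called by limma between NanogBiD and NanogWT iPSC (0% of 12456 genes called). At an unadjusted p under 0.05 there was 1, Mta1, beside 1.61% of all genes. Mta1 was 13.9 to 20.5 FPKM (median 17.7) with NanogBiD and 19.4 to 24.4 (median 22.7) with NanogWT, a difference of -0.36 ± 0.08. The other differences lay between -0.11 and 0.11, with errors of 0.07 to 0.13. The count of calls was also 0 without NanogBiD clone 9.

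Against MEF, the 12 iPSC libraries were higher in 8 members and lower in 1, with 71.1% of 13434 genes called (41.1% higher, 30% lower). Hdac1 was 25.3 and 25.2 FPKM in MEF and 85.9 to 213 (median 141) in iPSC, a difference of 2.35 ± 0.16 (adjusted p = 5.5e-08). Mta3 was 17.5 and 14.5 in MEF and 63.0 to 107 (median 71.7) in iPSC (2.13 ± 0.17, 2.7e-07). Gatad2a was 20.6 and 25.3 against 53.2 to 69.9 (median 58.7; 1.33 ± 0.10, 2.2e-07), and Mbd2 31.3 and 32.1 against 7.00 to 12.8 (median 9.73; -1.64 ± 0.17, 2e-06). These 4 are also the members with over 1 log2 unit between mES and MEF, a comparison that uses the same 2 MEF libraries. The other called members were Mta2 (0.67 ± 0.13), Chd4 (0.56 ± 0.13), Hdac2 (0.42 ± 0.11), Mta1 (0.38 ± 0.16) and Gatad2b (0.37 ± 0.15), and Mbd3 did not pass (0.12 ± 0.09, adjusted p = 0.24). The median gene was 0.22 higher in iPSC, and rescaling to the median total left 4 members higher and 1 lower. Past 2-fold there were 4 (40.4% of all genes). The count was 7 without either MEF library and 8 without NanogBiD clone 9, where Mta1 had an adjusted p of 0.056. The Mta1 value rested on 1 library, being 0.01 without MEF replicate 1. Its call was also lost without the filter, on rescaling to the median total and on quantile normalization. Gatad2b lost its call in those same settings, and its difference was 0.27 without MEF replicate 2. Hdac2 lost its call on rescaling and on quantile normalization, with a difference of 0.22 without MEF replicate 2. Chd4 lost its call on rescaling, where its difference was 0.33.

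Against mES, 1 of 10 members differed in iPSC, Mbd3 with 74.3 FPKM in mES and 79.1 to 115 (median 101) in iPSC (0.44 ± 0.12, adjusted p = 0.048, with 8.18% of all genes called). Without NanogBiD clone 9 its adjusted p was 0.053, and Hdac1 was called in its place; 0 passed a 2-fold limit (4.44% of all genes). The Hdac1 libraries separated by this label: 126 to 213 FPKM (median 183) over 7 libraries of iPSC1 and 85.9 to 111 (median 109) over 5 of iPSC2, with no overlap. In a comparison chosen after these values were seen, the term for the label (iPSC1 minus iPSC2) was 0.76 ± 0.13 for Hdac1 (adjusted p = 0.0066) and -0.40 ± 0.10 for Mta2 (0.04), 2 of 10 members beside 4.66% of all genes called, and 0 past 2-fold (0.883%). Mta2 lost its call when most single libraries were left out, and Hdac1 kept it in every one of those fits. The column names give iPSC1 libraries a later passage than iPSC2 libraries, so what the labels stand for and passage cannot be told apart. Passage also differed between mES and all iPSC, and its part was not tested. The NanogWT libraries 1# and 1#-2 share a clone number and are marked p5 and p6.

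The MEF and mES libraries stand in both tables and show how far single levels can be trusted. Summed transcripts and gene values had a median ratio of 1.04, 1.07 and 1.03 in these 3 libraries, with the middle 95% of genes between 0.378 and 2.41. Mta3 lay outside, with 17.5, 14.5 and 57.2 FPKM summed against 3.61, 2.84 and 9.27 in the gene table, a ratio of 4.85, 5.12 and 6.17. Mta1 lay low, at 0.443, 0.503 and 0.474. Shares among the Mta genes therefore depend on the table: Mta3 made up 3.55% to 5.66% of them in MEF and 10.1% in mES by gene, and 17.5% to 24.2% and 44.5% by summed transcripts. In both tables Mta3 was higher in mES than in each MEF library.

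Of the 81 member transcripts 49 passed the filter, and 14 were higher and 1 lower in iPSC than in MEF, with 34.4% of 27450 transcripts called (18.5% higher, 16% lower), 9 of them past 2-fold (26.2% of all transcripts). Without NanogBiD clone 9 the counts were 14 and 1 again. The lower one was NM_010773.2 of Mbd2, with 31.3 and 32.1 FPKM in MEF, 4.78 to 12.0 (median 7.84) in iPSC and 5.03 in mES (-1.91 ± 0.24, adjusted p = 6.7e-05). Its annotation in GENCODE has 7 exons and 414 codons. The shorter NM_001311071.1, with 3 exons and 249 codons, was listed at 0 in both MEF libraries and at 0.360 to 2.59 (median 1.17) in iPSC and 5.69 in mES (1.14 ± 0.27, adjusted p = 0.0062). It made up a median of 12.4% of Mbd2 in iPSC and 48.6% in mES.

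**Figure D5:**
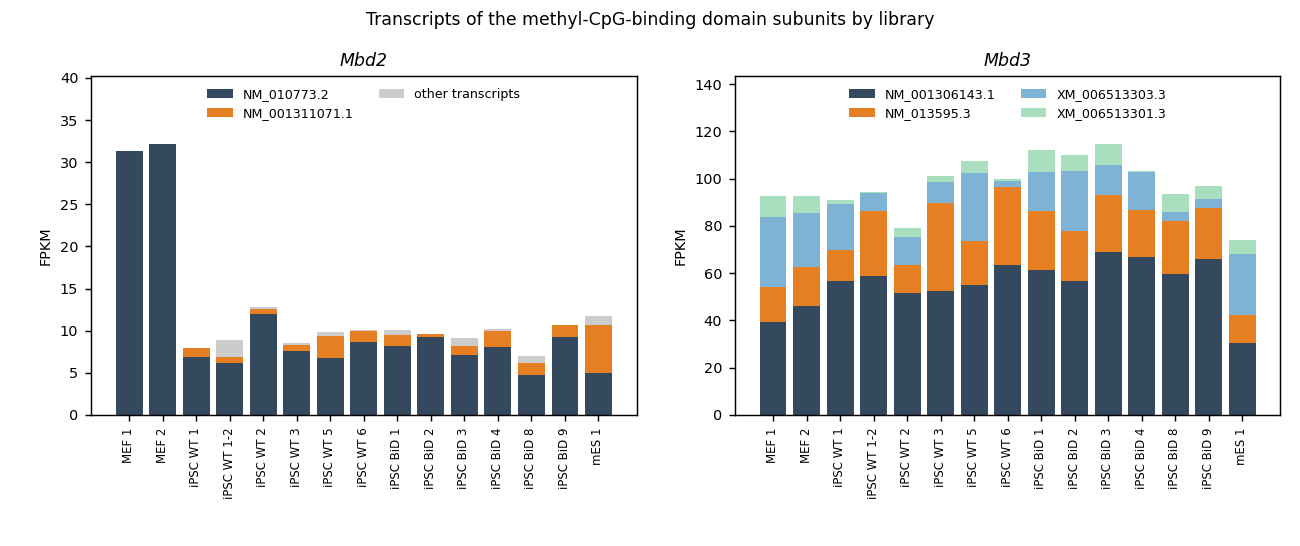
FPKM of the transcripts of Mbd2 (left) and Mbd3 (right), stacked by library for MEF, iPSC of NanogWT and NanogBiD by clone, and mES. The tall dark Mbd2 bars of MEF drop in all iPSC and in mES, where the orange 249-codon transcript appears; for Mbd3 the dark 253-codon transcript is the largest segment in every library.

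For Mbd3 the transcript that led in each library codes for a shorter protein than NM_013595.3, and the other Mbd3 transcripts had no coding length here. NM_001306143.1 (253 codons) was 39.2 to 46.2 FPKM in MEF, 51.7 to 69.0 (median 59.2) in iPSC and 30.5 in mES, and rose by 0.48 ± 0.11 (adjusted p = 0.0044) while the gene as a whole did not pass. NM_013595.3 (285 codons) was 15 to 16.3, 11.9 to 37.3 (median 22) and 11.8 (0.49 ± 0.34, adjusted p = 0.31). XM_006513303.3 was 22.9 to 29.6, 2.56 to 29.0 (median 12.4) and 25.7, and did not pass the test. A shift of reads between these transcripts was not tested. Mta3 had 4 rising transcripts, Gatad2a 4, and Hdac1, Hdac2, Mta1 and Mta2 1 each. Chd4, with 13 transcripts tested, and Gatad2b, with 4, had 0. Assignment between near-identical transcripts was unstable: NM_145979.2 held 8.71% to 90.7% of Chd4 over the iPSC libraries, and a single Mta1 transcript, XM_006515424.2, held 0% and 97.0% in the MEF libraries.

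Most of 10 further NuRD genes and partners were also higher with NanogBiD at D10 and D12, in a list that includes partners outside the core complex. Of its core genes Rbbp4 and Rbbp7 were higher at D12 and Cdk2ap1 was not called. The ATPase paralogue Chd3 was lower at D12. Of 11 further NuRD genes and partners, 10 were tested in the time course, and 6 were higher with NanogBiD at D7, 9 at D10 and 7 at D12, with 0, 1 and 1 lower, where 17.3%, 32.4% and 31.6% of all genes were higher. Their medians were 0.61, 0.95 and 0.79. The histone-binding subunit genes Rbbp4 and Rbbp7 differed by 0.59 ± 0.24 (adjusted p = 0.073) and 0.77 ± 0.15 (0.00051) at D7 and by 0.84 ± 0.24 (0.0062) and 0.46 ± 0.15 (0.013) at D12, and the small subunit gene Cdk2ap1 by 0.69 ± 0.19 (0.0089) and 0.29 ± 0.19 (0.22). Kdm1a, a histone demethylase found with NuRD, was higher by 0.41 ± 0.11 (0.0074) at D7 and 1.27 ± 0.11 (1.3e-08) at D12, and Zmynd8, a bromodomain partner, by 0.63 ± 0.12 (0.00057) and 0.74 ± 0.12 (4.4e-05).

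Among the zinc-finger partners that carry a NuRD-binding peptide, Sall4 was listed at 0 in MEF and in all 4 libraries of D0 and measured 22.4 and 22.9 FPKM with NanogBiD and 1.43 and 1.63 with NanogWT at D7, 59.5 and 41.3 and 3.01 and 7.51 at D12, and 57.4 in mES. Its difference at D7 was 3.22 ± 0.31 (adjusted p = 2.5e-07), and that of Sall1 2.29 ± 0.29 (7.3e-06). The ATPase paralogue Chd3 went the other way from Chd4. Chd3 was 52.6 and 48.9 FPKM in MEF, 34 and 26.3 at D0 and 14.5 and 18.7 at D12 with NanogBiD, 37.8 and 24.9 at D12 with NanogWT, and 4.08 in mES. Its difference was -0.16 ± 0.28 (adjusted p = 0.73) at D7, -0.86 ± 0.28 (0.014) at D12, -3.35 ± 0.33 (3.5e-08) for mES against MEF and -3.86 ± 0.42 (3.8e-06) for iPSC against MEF. Chd5, the neural paralogue, did not pass the filter in the gene table and was 0.51 ± 0.16 higher in iPSC than in MEF (0.01). In mES against MEF Rbbp4 (1.34 ± 0.29), Rbbp7 (0.46 ± 0.18), Kdm1a (1.47 ± 0.13), Zmynd8 (0.97 ± 0.15), Sall1 (4.19 ± 0.35) and Sall4 (5.87 ± 0.37) were higher, and Chd3, Cdk2ap1 (-1.01 ± 0.23) and Bcl11b (-0.55 ± 0.22) lower, 9 of 10 tested. Of all genes 54.1% were called there (32.6% higher, 21.5% lower), with mES a single library.

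Genes that share the deacetylases or the methyl-binding fold were called in both directions. Of 10 genes of other class I deacetylases and their assemblies, 2 were higher and 1 lower at D7 and 3 higher and 1 lower at D12, with medians of 0.11 and 0.29, beside 28.4% and 50.7% of all genes called. The largest were Rcor2 of the CoREST complex (2.35 ± 0.42, adjusted p = 0.00025, at D7 and 2.08 ± 0.42, 0.00034, at D12) and Sin3a, the scaffold of the Sin3 complex (0.78 ± 0.14, 0.00033, and 1.22 ± 0.14, 8e-07). Of 5 further genes of the Mbd family, Mbd4, a DNA glycosylase gene, was higher at D7 (0.53 ± 0.17, adjusted p = 0.028) and D12 (1.42 ± 0.17, 1.4e-06), and Mbd1 was lower at D12 (-0.96 ± 0.14, 1.2e-05) and -0.27 ± 0.14 (0.16) at D7.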

How the data were processed

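RNA of 46 libraries was sequenced. The authors trimmed reads with Trim Galore 0.6.4, aligned them to mm10 with HISAT2 2.2.1 and quantified each library with StringTie 2.2.1, per the paper's methods and the submitters' processing notes. The deposited values were FPKM, in a gene table (time course, MEF, mES) and a transcript table (MEF, iPSC, mES). The annotation version and the use of strand are not given in the sources used here. All value columns were mapped to a labelled sample. FPKM are not counts, and absolute depth is unknown.

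Transcripts were summed by symbol. Values were tested as log2(FPKM + 1) with limma 3.58.1 in R 4.3.3 (moderated test with trend, two-sided, Benjamini-Hochberg adjustment over all genes tested, called at an adjusted p under 0.05), over genes that reached 1 FPKM in 2 or more libraries. The time course shared 1 estimate of the spread over its 16 combination and day groups. A fold change on this scale understates that of low genes. The iPSC combinations were compared with the iPSC1 or iPSC2 label as a covariate. D8 was described without a call, and shares within a family were not tested. The gene and transcript tables were tested apart.

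The named genes were always the 10 members, with the core subunits and ATPase paralogues of a further NuRD list, its other genes where they passed at D7 or between mES and MEF, and the largest 2 passing changes at D7 and at D12 of lists of class I deacetylase partners and Mbd genes. Members and lists were chosen with earlier results of these data known. Alternatives were a pseudocount of 0.1, no filter, rescaling to the median total, quantile normalization, a 2-fold limit, the compared groups fitted alone, the replicate number as a block, the iPSC clones 1# and 1#-2 averaged, no such term, and each library left out. Promoter windows and gene positions came from RefSeq (GRCm38.p6), strands and coding lengths from GENCODE vM21, and near copies from blastn 2.17.0. Scripts were tested on simulated data.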

Additional observations from a re-analysis of the deposited data

Results flagged for a closer look

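A pair of iPSC libraries of NanogBiD lay far from the other 5 of their group, out of 20 gene and group sets tested, where chance gives about 1 in 20. Mta3 was 107 FPKM in clone 8 and 63.0 to 72.8 in the others, a gap that took up 0.779 of the range. Gatad2a was 69.9 in clone 4 and 56.3 to 59.0 in the others (0.801 of the range). Both clones carry the label iPSC1.

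The change of Chd4 from D0 to D7 differed between NanogBiD and NanogWT by 0.71 in log2(FPKM + 1) (limma, adjusted p = 0.038), with libraries at 34.2 and 34.5 FPKM at D0 and 91.3 and 60.6 at D7 for NanogBiD, and 32.2 and 42.1 and then 52.0 and 45.0 for NanogWT. The call was lost without 5 of the 8 libraries in turn, and the difference was 0.42 (adjusted p = 0.22) without NanogBiD D7 replicate 1.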

How the results depend on the processing

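No member reversed its direction where it was called. Of 2010 single values under an alternative, 1873 stayed on their side of the threshold, 126 lost a call and 11 gained 1. The counts of called members that moved by over 1.5 times were these. With a 2-fold limit the count was 0 in place of 4 at D7, 3 in place of 8 at D10, 0 in place of 9 at D12, 1 in place of 3 from D0 to D7 and 3 in place of 9 from D0 to D12 with NanogBiD, 0 in place of 1 from D0 to D12 with NanogWT, 0 in place of 1 for the difference of changes, 1 in place of 5 between NanogBiD D12 and mES, 4 in place of 9 between iPSC and MEF, 9 in place of 15 for transcripts, and 0 in place of 1 and 2 between iPSC and mES and between iPSC1 and iPSC2. With the compared groups fitted alone it was 0 at D7, 1 from D0 to D7 with NanogBiD, and 0 for D0 to D12 with NanogWT and for the difference of changes, where fewer libraries set the spread. Rescaling to the median total gave 1 from D0 to D7 and 2 from D0 to D12 with NanogWT, 0 for the difference of changes, 5 between iPSC and MEF and 0 between iPSC and mES. Quantile normalization and no filter gave 0 for the difference of changes, a pseudocount of 0.1 gave 0 between iPSC and mES, and no filter or the mean of clones 1# and 1#-2 gave 1 between iPSC1 and iPSC2. The cause of these moves was not tested. Leaving out single libraries gave 2 at D7, 7 to 8 at D10, 8 at D12, 1 to 3 and 7 to 8 from D0 to D7 and D12 with NanogBiD, 0 to 1 and 0 to 2 with NanogWT, 0 to 1 for the difference of changes, 5 between mES and MEF, 3 to 5 between NanogBiD D12 and mES, 7 to 8 between iPSC and MEF and 1 to 2 between iPSC1 and iPSC2, while D0, D1, D3, D5 and the iPSC combinations stayed at 0. With the replicate block every one of 120 member values kept its side of the threshold. Same-numbered libraries of the combinations deviated together with correlations from -0.06 to 0.39, over 0.1 on 4 of 7 days, which does not establish that the numbers pair the libraries. Depth is unknown for iPSC, and low genes such as Mta3 in the gene table carry the most counting error.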

Other observations

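Single genes among the class I deacetylase partners and the Mbd family differed between pluripotent cells and fibroblasts, in shares of each list that are read beside those of all genes. In mES against MEF 4 of the 10 partners were higher and 2 lower, and in iPSC against MEF 4 and 3, with medians of 0.12 and 0.17, beside 54.1% and 71.1% of all genes called. Rcor2 was higher by 3.24 ± 0.50 in mES (adjusted p = 1.3e-05, limma) and 3.68 ± 0.12 in iPSC (6.3e-11), while its paralogue Rcor3 was lower by -1.36 ± 0.23 (4.7e-05) and -1.02 ± 0.19 (0.00038). Of the 5 further Mbd genes, Mbd4 was higher (2.24 ± 0.21, 1.4e-08, and 1.49 ± 0.16, 3.1e-06) and Mbd1 lower (-0.84 ± 0.17, 0.00029, and -0.70 ± 0.19, 0.0054). In iPSC1 against iPSC2, a comparison added after the values were seen, Mbd4 differed by -0.75 ± 0.12 (0.0044). Rcor3 is named here outside the rule, after its values were seen.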
